A study of Drosophila melanogaster with 3 samples.

Results

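The NK homeobox cluster of Drosophila melanogaster is a run of neighbouring homeobox genes on chromosome arm 3R, and binding of Nf-YB was described at its 6 genes tin, bap, lbl, lbe, C15 and slou. The genes were taken by symbol from the annotation, 6 of 13945 protein-coding genes, and each summit of the authors' optimal peak list inside a gene or within 5 kb of it was assigned to that gene. This gave 25 of the 6221 optimal summits. The genes were picked from earlier results of these data in which the ranks of their peaks were known, so their ranks, signals and widths are given as a description, with no test.

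Chromatin immunoprecipitation with sequencing was done on whole embryos, male and female pooled, 0 to 24 h old, of a transgenic fly line that stably carries Nf-YB with a C-terminal GFP, and an antibody to GFP was used. There were 3 biological replicates in 1 group, and no other condition was analysed here. The labels do not name the promoter that drives the fusion. The embryos hold all tissues and a full day of stages, so in which cells the fusion was bound cannot be told apart. Peaks are ranked by the authors' signal value, and rank 1 is the strongest. Each replicate list held 30000 peaks and the read depth behind the lists is unknown.

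NF-Y, to which Nf-YB contributes a histone-fold subunit, is a trimer that recognises the CCAAT box in promoters. NK homeobox genes encode homeodomain transcription factors, and the genes of this cluster are known for subdividing the mesoderm and for giving heart and muscle cells their identity. tin (tinman, FBgn0004110) is required for the heart and the dorsal mesoderm, and bap (bagpipe, FBgn0004862) acts below tin in the visceral mesoderm that forms the gut muscle. lbl and lbe (ladybird late, FBgn0008651, and ladybird early, FBgn0011278) are a duplicated pair that acts in heart cells and in muscle founders. C15 (clawless, FBgn0004863) is known for the tip of the leg, and slou (slouch, FBgn0002941) marks a subset of muscle founder cells.

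The sequences at the strongest summits of the 6 genes show what lay under the binding. Each is 101 bases, the summit with 50 bases on both sides, from the RefSeq copy of dm6 and written on the plus strand. Capitals mark CCAAT and GAGAG on either strand (ATTGG and CTCTC are their reverse complements), GAGAG being a core of the element that the GAGA factor binds. The stretches lie, in the order printed, at chr3R:21378805-21378905, chr3R:21387745-21387845, chr3R:21434315-21434415, chr3R:21446516-21446616, chr3R:21499594-21499694 and chr3R:21561729-21561829.
tin: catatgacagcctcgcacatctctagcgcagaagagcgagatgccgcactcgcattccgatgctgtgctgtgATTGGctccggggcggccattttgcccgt
bap: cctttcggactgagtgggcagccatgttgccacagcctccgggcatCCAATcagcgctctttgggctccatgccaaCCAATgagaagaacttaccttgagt
lbl: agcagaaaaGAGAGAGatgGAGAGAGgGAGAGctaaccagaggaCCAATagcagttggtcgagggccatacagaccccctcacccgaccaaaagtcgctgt
lbe: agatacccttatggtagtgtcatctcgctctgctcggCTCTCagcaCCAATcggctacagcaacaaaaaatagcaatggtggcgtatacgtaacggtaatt
C15: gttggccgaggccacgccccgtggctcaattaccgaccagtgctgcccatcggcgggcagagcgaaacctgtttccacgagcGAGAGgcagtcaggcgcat
slou: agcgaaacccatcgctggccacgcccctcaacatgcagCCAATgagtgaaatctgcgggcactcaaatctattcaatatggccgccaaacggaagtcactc

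CCAAT lay within 50 bp of 5 of these 6 summits, all but that at C15. Its centre was 2 bp from the summit at lbe and at bap, 4 bp at lbl, 10 bp at slou and 24 bp at tin, and bap carried a second copy. Of the other 120 optimal summits in the same range of ranks, from 7 to 132, CCAAT was found at 60.8%. GAGAG was found at 3 of the 6, those at lbl, lbe and C15, against 44.2% of the 120. At lbl 5 copies of GAGAG, overlapping ones each counted, stood to one side of the CCAAT.

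The 6 genes lie in 178 kb (dm6). Each had 1 summit at a rank from 7 to 132 within 5 kb, and the other summits of the stretch were weaker. That of slou lay 4597 bp upstream of the gene. From the start of tin at position 21378977 to the end of slou at 21557182, with 5 kb on both sides, 41 optimal summits were found, 21.8 per 100 kb, against 4.65 per 100 kb over the 6 arms. Of the 622 peaks that form the strongest 10% of the list, 11 lay here, 5.84 per 100 kb, against 0.465 over the arms. All 6 genes held a summit in their window, against a background of 50.2% of protein-coding genes. The windows held 2 to 6 summits, with a median of 5, against a median of 1 over all protein-coding genes, and 5 of the 6 genes held 3 or more, against 11.4%. Member windows were longer, at a median of 16.7 kb against 12.2 kb.

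**Figure D1:**
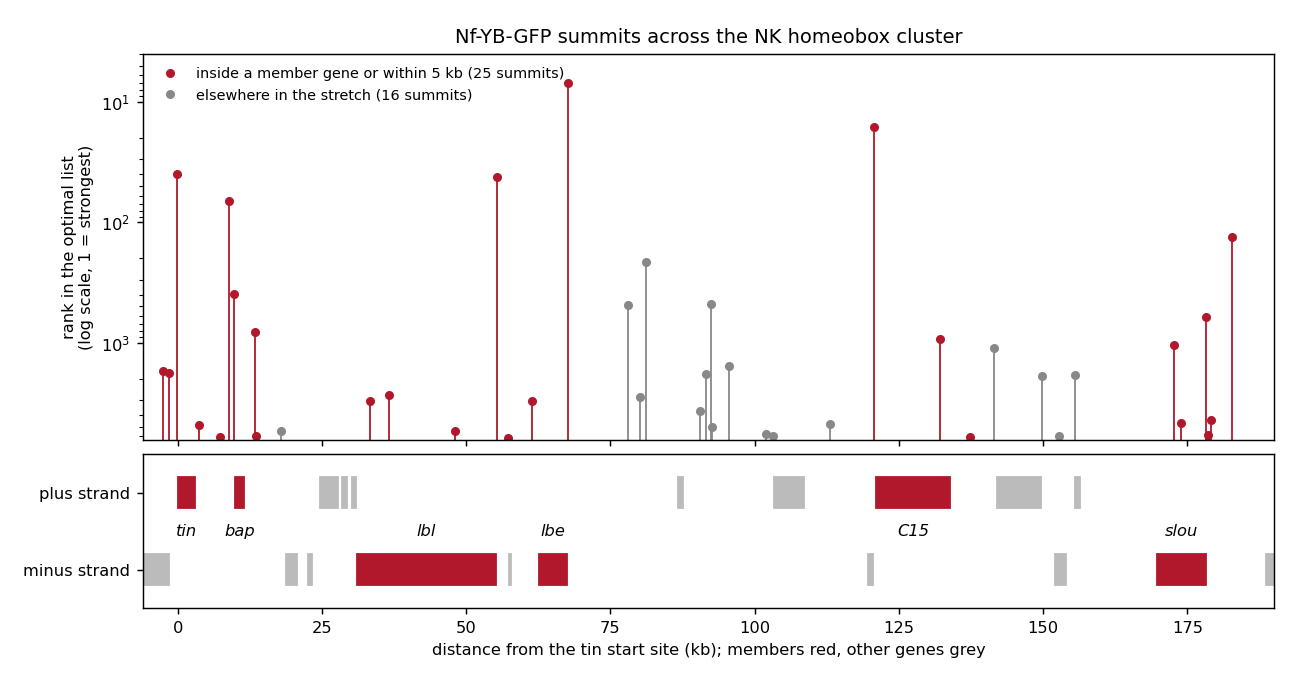
Optimal summits across the cluster, by distance from the tin start site in kb (x axis) and rank in the optimal list (y axis, log scale, strongest at the top); the lower panel shows the genes on both strands, without the precursor transcripts of mod(mdg4). Red stems are the 25 summits inside a member gene or within 5 kb and grey stems the other 16, and the tallest stems stand at lbe, C15, tin, lbl and bap, ranked 7, 16, 40, 42 and 67.

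Each of the 6 genes has 1 annotated transcription start site (TSS), and all 6 had a summit within 500 bp of it, against 21.6% of protein-coding genes. In all 6 this promoter summit, or the stronger of 2 at slou, was in the strongest 10% of the list, against 2.02%. There were 7 promoter summits in all and each lay upstream of the TSS, in intergenic sequence. The next paragraphs give the genes by their place along the chromosome, with ranks in replicates 1, 2 and 3.

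At tin (21378977 to 21381970, plus strand) the strongest summit lay 122 bp upstream of the TSS in a peak from 21378243 to 21379356. It ranked 40 in the optimal list and 38, 40 and 50 in the replicates, and its signal was 58.2 times the list median. The summit positions in the replicates were within 1 bp of the optimal one. The other 4 summits of the window ranked 1738, 1801, 4807 and 6074. The 2 stronger of these lay 2562 and 1493 bp upstream of tin but at the neighbouring gene mod(mdg4), which encodes a BTB protein of chromatin, one in an intron of it and the other 83 bp upstream of its TSS. The summit 3783 bp downstream of the tin TSS, behind the end of the gene, carried CCAAT and ranked 2898, 4615 and 12895 in the replicates.

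At bap (21388880 to 21390449, plus strand) the strongest summit was not the one at the TSS. It lay 1085 bp upstream, in a peak from 21387286 to 21388080, ranked 67 in the optimal list, and 44, 52 and 99 in the replicates. The promoter summit, 127 bp upstream in a peak from 21388339 to 21389136, ranked 395 in the optimal list and 346, 362 and 691 in the replicates. The upstream summit thus ranked above the promoter summit in every replicate. Both carried CCAAT, and the signal was 46.8 times the list median upstream and 8.04 times at the promoter. A further CCAAT summit lay 3553 bp downstream of the TSS, behind the gene, at rank 819. Another 3754 bp downstream ranked 5977 in the optimal list and 23396, 2255 and 8754 in the replicates, the widest spread at bap. The weakest summit of the window, ranked 6074, lay between the genes and belonged to the windows of both tin and bap.

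The bap promoter summit is shown with 50 bases on both sides, at chr3R:21388703-21388803 on the plus strand, because the CCAAT there is single where the stronger upstream summit had a pair.
bap promoter: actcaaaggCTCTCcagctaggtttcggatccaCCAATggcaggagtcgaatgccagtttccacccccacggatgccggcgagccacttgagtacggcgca

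The ladybird pair differed in the rank of the strongest summit. The windows held 5 summits at lbl and 2 at lbe, but lbl is the longer gene, at 24155 bp against 4961 bp. Of the lbl summits 3 lay inside the gene, and the part of gene length in these counts was not tested. At lbe (21441577 to 21446537, minus strand) the strongest summit of the cluster lay 29 bp upstream of the TSS, in a peak from 21446039 to 21447080. It ranked 7 in the optimal list and 5, 9 and 10 in the replicates, with a signal 104 times the list median. The only other summit of its window lay 6202 bp downstream of the TSS, behind the end of the gene, at rank 3059. At lbl (21409979 to 21434133, minus strand) the strongest summit lay 232 bp upstream of the TSS, in a peak from 21433953 to 21434861. It ranked 42 in the optimal list and 50, 49 and 38 in the replicates, with a signal 57.0 times the list median. The replicate ranks of lbe and lbl did not overlap.

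The other lbl summits ranked 3044, 2710, 5428 and 6198. The first 2 lay in introns, 21898 and 18501 bp downstream of the TSS. The third lay in a coding exon 7172 bp downstream, and was the only one of the 25 in an exon. None of these 4 carried CCAAT or GAGAG within 50 bp. The summit ranked 6198, 2072 bp upstream, had no counterpart within 100 bp in replicate 3.

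The 250 bases before the TSS of lbe and of lbl, written on the strand of each gene and ending 1 base before the TSS, differ in the arrangement of the same motifs. They lie at chr3R:21446538-21446787 and chr3R:21434134-21434383 on the minus strand. The lbe stretch held 1 CCAAT, centred 27 bp before the TSS, and 1 GAGAG. The lbl stretch held 2 CCAAT, centred 228 and 145 bp before the TSS, and 10 GAGAG when overlapping copies are each counted.
lbe: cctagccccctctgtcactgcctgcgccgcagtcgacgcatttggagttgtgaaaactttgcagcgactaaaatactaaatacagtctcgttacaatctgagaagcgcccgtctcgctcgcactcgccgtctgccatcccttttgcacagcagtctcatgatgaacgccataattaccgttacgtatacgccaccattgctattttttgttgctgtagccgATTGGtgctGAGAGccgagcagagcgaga
lbl: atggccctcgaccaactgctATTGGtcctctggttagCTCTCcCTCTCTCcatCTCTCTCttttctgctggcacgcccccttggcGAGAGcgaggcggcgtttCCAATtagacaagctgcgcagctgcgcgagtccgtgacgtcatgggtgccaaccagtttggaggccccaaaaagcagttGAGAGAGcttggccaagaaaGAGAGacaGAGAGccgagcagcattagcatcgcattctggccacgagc

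Over the 250 bases before the TSS, 5 of the 6 genes carried CCAAT, all but C15, and 4 carried GAGAG, all but C15 and tin. Of 19253 start sites of protein-coding genes, 40.7% carried CCAAT and 29.1% GAGAG in the same stretch. A match is a run of letters and does not show that a factor was bound to it.

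At C15 (21499986 to 21512814, plus strand) the strongest summit lay 342 bp upstream of the TSS, in a peak from 21499042 to 21500181 with the width of 1140 bp, the widest of the 25. It ranked 16 in the optimal list and 13, 14 and 24 in the replicates, with a signal 83.0 times the list median. The start site of a noncoding RNA gene on the other strand, lncRNA:CR44032, was nearer, with the summit 239 bp upstream of it, so the summit lay between both starts and the peak covered both. A second summit lay in an intron of C15, 11134 bp downstream of the TSS, at rank 941 and with GAGAG. It ranked 787, 1040 and 1479 in the replicates. The third, behind the gene, ranked 6112 in the optimal list and 15443 in replicate 3.

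At slou (21548661 to 21557182, minus strand) the strongest summit was again away from the TSS. It lay 4597 bp upstream, in a peak from 21561258 to 21562170, and ranked 132 in the optimal list and 122, 127 and 139 in the replicates. The slou TSS was the nearest annotated start. The promoter summit, 79 bp upstream in a peak from 21556962 to 21557567, ranked 611 in the optimal list and 522, 537 and 1278 in the replicates. It carried GAGAG without CCAAT within 50 bp. A second summit in the same interval, 286 bp upstream, was found within 100 bp in replicate 2 only. The other 3 ranked 1046 and 4661, both in an intron, and 4406, which lay 936 bp upstream. The intronic summit at rank 1046 and the one at 4406 each had 8 copies of GAGAG, counted in the same way, within 50 bp.

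The slou promoter summit is printed, at chr3R:21557211-21557311 on the plus strand, because it was the only promoter summit among the strongest 10% here, besides that at C15, without CCAAT within 50 bp. Both whole intervals held CCAAT, with 3 copies each.
slou promoter: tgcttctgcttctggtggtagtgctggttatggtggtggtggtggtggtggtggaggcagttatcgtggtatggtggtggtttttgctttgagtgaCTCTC

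**Figure D2:**
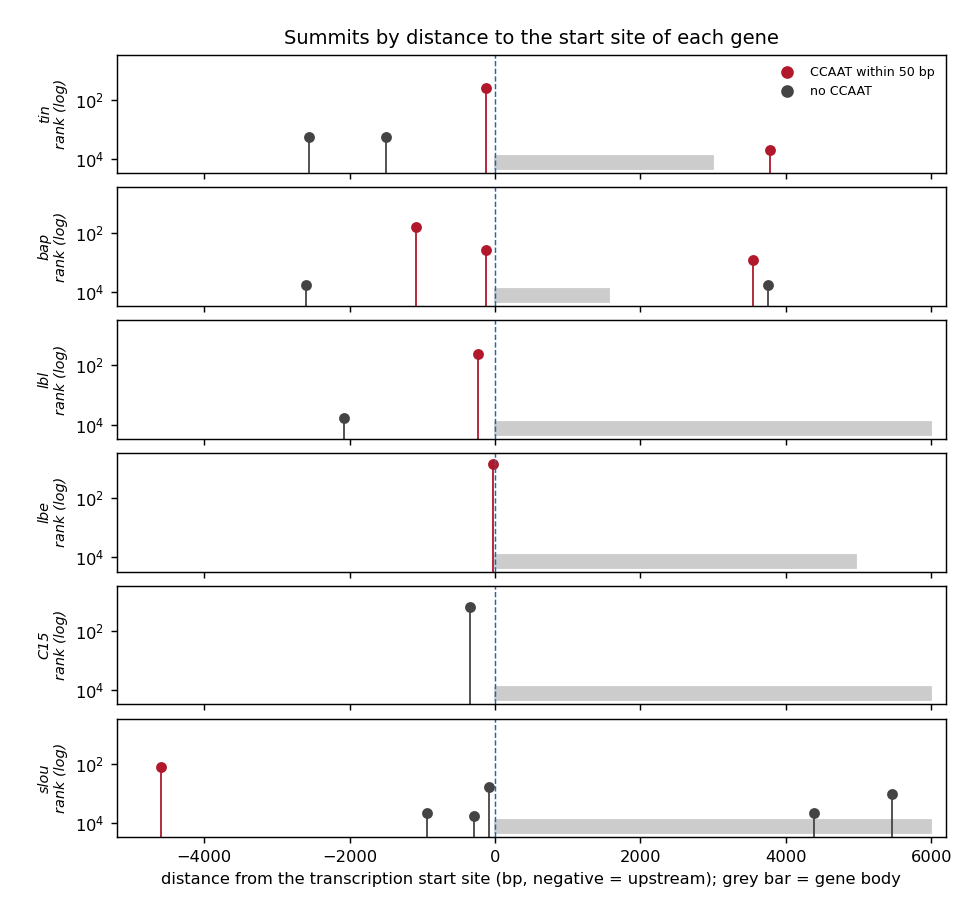
Rank in the optimal list (y axes, log scale, strongest at the top) of the summits nearest to each gene, by distance in bp from its TSS (x axis, negative is upstream); red points had CCAAT within 50 bp, dark points had none, grey bars are gene bodies, and summits beyond the axis are not drawn. A strong summit stands just upstream of the TSS at tin, lbl, lbe and C15, while at bap and slou the strongest stands 1085 and 4597 bp upstream.

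The order of the genes by their strongest summit was lbe, C15, tin, lbl, bap and slou in the optimal list. The first 2 and the last kept their place in each replicate. The replicate ranks of lbe (5 to 10), C15 (13 to 24) and tin (38 to 50) did not overlap. Those of tin and lbl covered the same range, 38 to 50, and both overlapped with bap (44 to 99). Within replicates, the order of tin and lbl and that of lbl and bap changed from list to list. The strongest summit of tin ranked above that of bap in each of the 3 replicates, at 38, 40 and 50 against 44, 52 and 99. The ranks of slou (122 to 139) lay beyond those of bap. The mean rank was 8 ± 2.65 at lbe, 17 ± 6.08 at C15, 42.7 ± 6.43 at tin, 45.7 ± 6.66 at lbl, 65 ± 29.7 at bap and 129 ± 8.74 at slou (SD, n = 3 each). The largest SD, at bap, came with the rank of 99 in replicate 3.

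**Figure D3:**
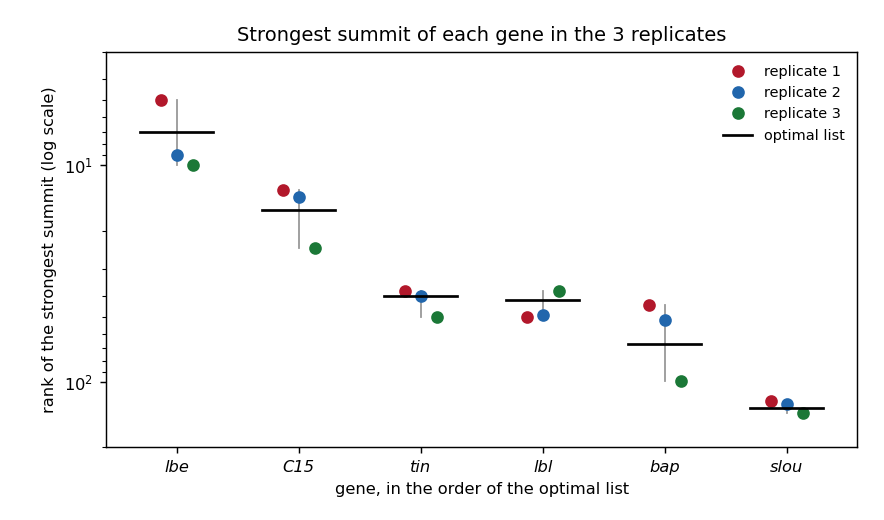
Rank of the strongest summit of each gene (y axis, log scale, strongest at the top) in replicates 1, 2 and 3 (coloured points) and in the optimal list (black bar), with grey lines over the range of the replicates. The points of tin and lbl cover the same range of 38 to 50, and bap has the widest range, 44 to 99.

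Summits of the cluster recurred in the replicates about as often as those of the list. The list was derived from the replicates by the irreproducible discovery rate, so recurrence is partly built in. Of the 25, 23 had a summit within 100 bp in all 3 replicates, near the 85.9% of the optimal list. All 8 from the strongest 10% did, beside 615 of 622 in that part of the list. The median shift between the optimal summit and its counterpart was 7, 4 and 8 bp in replicates 1, 2 and 3. Counterparts among the 6221 strongest peaks of a replicate were found for 92%, 96% and 68% of the 25, against 80.8%, 75.9% and 79.3% of the optimal list. Replicate 3 was thus the lowest of the 3 for the cluster but not for the list. Base composition differed as well, with a mean GC content of 48.8% within 50 bp of the 25 summits against 39.3% over the list, and its part in the difference was not tested. At matched ranks GC content was 55.8% at the 6 strongest summits and 55.4% at the other 120 from rank 7 to 132. The pooled list held 5 to 26 further summits per gene below the optimal list, and lbl, the longest gene, had the most.

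The strong summits were wide. Intervals of 700 bp or more held 7 of the 25 summits, against 6.49% of the optimal list, and 7 of the 8 from the strongest 10%, against 53.7% there. These include the strongest summit of all 6 genes, from 795 bp at bap to 1140 bp at C15 with a median of 978 bp. Intervals that wide were the rule at these ranks, with 97.5% of the other 120 summits from rank 7 to 132 and a median of 1034 bp there. In replicates 1, 2 and 3 the width was 954, 1072 and 811 bp at lbe, 1061, 1151 and 953 bp at C15, 1044, 1169 and 871 bp at tin, and 873, 901 and 800 bp at lbl. It was 788, 818 and 569 bp at bap and 783, 938 and 717 bp at slou. Replicate 3 gave the narrowest interval at each of the 6. The 17 member summits below the strongest 10% were 185 to 606 bp wide, and 7 of them had exactly 444 bp, a width given to 3317 peaks of the optimal list.

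**Figure D4:**
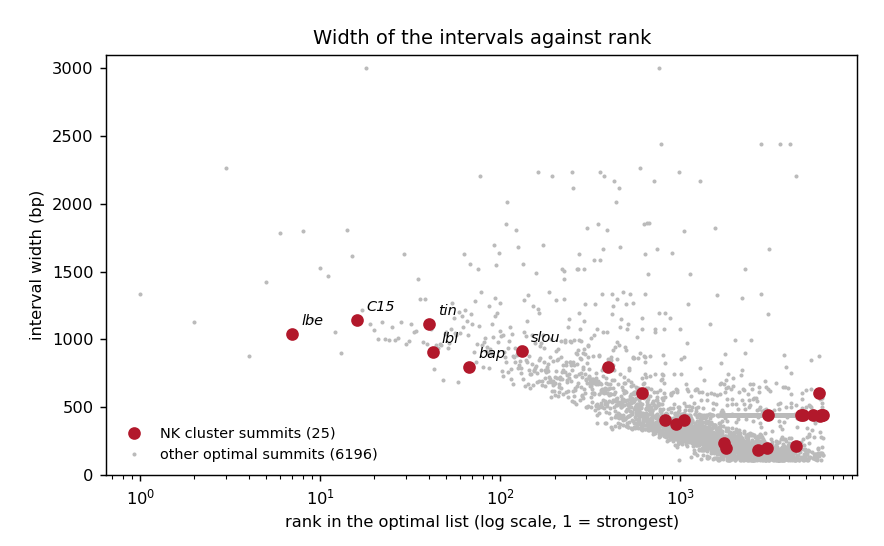
Interval width in bp (y axis) against rank in the optimal list (x axis, log scale) for the 25 summits of the cluster (red, the strongest named) and the other 6196 (grey). The red points follow the grey ones, with widths of 795 to 1140 bp at ranks 7 to 132 and of 185 to 798 bp further down.

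Over all 25 summits, CCAAT was found within 50 bp of 10, beside 27.0% of the optimal list, and GAGAG of 10, beside 18.0%. Among the 8 from the strongest 10% these counts were 6 and 5, beside 47.7% and 39.4% of the list there. No summit of the 8 lacked both motifs, beside 188 of 622 in the strongest 10% of the list, and 8 of the 17 weaker ones did, beside 3568 of the 5599 weaker summits of the list. Over the whole intervals of the 8, CCAAT occurred 2.87 times per kb and GAGAG 8.61 times per kb, against 2.74 and 6.05 times per kb in the strongest 10% of the list. Of the 63 GAGAG copies in the 8 intervals, the strongest lbl and slou intervals held 23 and 17. The GAGAG copies were thus unevenly spread over the intervals, and no test was made.

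Further strong summits, 3 in number, lay between lbe and C15, outside the windows of both, in the 53448 bp that part the genes and also hold Fancm. All 3 were intergenic. They lay 10457, 13656 and 24843 bp upstream of the lbe TSS, and ranked 485, 215 and 478. The nearest annotated start of all 3 was that of a noncoding RNA gene, lncRNA:CR43453, at offsets of -8707, -5508 and 5679 bp, where negative is upstream. The summit at rank 215 ranked 187, 204 and 267 in the replicates, and the others 434, 454 and 700, and 465, 472 and 548. Each carried CCAAT within 50 bp. They are printed on the plus strand to show this, at chr3R:21456944-21457044, chr3R:21460143-21460243 and chr3R:21471330-21471430.
first: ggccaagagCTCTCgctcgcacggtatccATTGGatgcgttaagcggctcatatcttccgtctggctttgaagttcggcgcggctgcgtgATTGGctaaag
second: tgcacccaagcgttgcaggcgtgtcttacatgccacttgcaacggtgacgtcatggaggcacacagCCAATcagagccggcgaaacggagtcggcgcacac
last: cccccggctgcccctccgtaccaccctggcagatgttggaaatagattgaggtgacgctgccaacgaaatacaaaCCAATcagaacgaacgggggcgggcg

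The genes that lie between the members held weaker summits at their starts, if any, apart from one shared with C15. Of the 6 other protein-coding genes between tin and slou, Ugt49B2 (a glycosyltransferase), CheB93a and CheB93b (of a chemosensory family), Fancm and sp3 had a summit in their window and CG7907 had none. Only Fancm, which encodes a DNA repair helicase, had one within 500 bp of a TSS, 247 bp upstream, at rank 5975, so that 1 of the 6 had a promoter summit beside the 21.6% of all protein-coding genes. At sp3 the best summit, ranked 1102, lay 549 bp upstream of the TSS. The summit of CheB93a and CheB93b, ranked 3044, was the one in the lbl intron. Of the 6 noncoding RNA genes in the stretch, 3 had a promoter summit, and no share over all noncoding RNA genes is given here. That of lncRNA:CR44032 was shared with C15. That of lncRNA:CR44089 was the summit in the lbl window ranked 6198, and that of lncRNA:CR44033 ranked 1846. Including 50 kb on both sides, 14 of 33 other protein-coding genes had a promoter summit, beside 21.6% of all protein-coding genes. Many of the 33 are overlapping precursor units of mod(mdg4), and most of the 14 are such units that share a single summit, ranked 1413. They are thus not separate cases. None of the 33 had a promoter summit in the strongest 10% of the list. With 2.02% of all protein-coding genes having one, a set this small cannot show a difference.

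The distance limit touched 2 genes. The strongest slou summit lay 4597 bp from the gene, just inside 5 kb, and the next outside, at 7563 bp, ranked 1551. For tin, the summit just inside, at 4311 bp, ranked 6074, and the one just outside, at 5825 bp, was the strongest of bap at rank 67. The other summits just inside lay 2599, 2072, 1242 and 3467 bp from bap, lbl, lbe and C15, and those just outside at 6120, 6202, 5372 and 7565 bp.

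The cluster was set beside 12 other NK and related homeobox genes. All 12 had a summit in their window, 10 had one at the promoter and 8 had one of the strongest 10% there. The median rank of the strongest summit was 164, beside 41 for the 6 members and 2353 for all protein-coding genes with a summit. The 4 with the highest were E5, scro, ems and vnd at ranks 4, 9, 103 and 106. That of E5 lay 2387 bp upstream of its TSS, that of ems, a head gap gene, 166 bp upstream, and that of vnd, which patterns the ventral nerve cord, 1912 bp upstream.

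Genes known for roles in the mesoderm, heart or muscle formed the other list. Of 25 such genes 24 had a summit in their window, 23 at the promoter and 15 one of the strongest 10% at the promoter, and the median rank was 160. The 4 highest were ap, Doc3, slp2 and pnr at ranks 20, 24, 44 and 45. twi, which is required for tin to be expressed in the mesoderm, ranked 46, with 81, 73 and 22 in the replicates, and lmd had no summit. The 4 lowest of those with a summit were sna, htl, nau and Kr at ranks 5212, 2547, 1234 and 831. Dorsocross and pnr act with tin in the heart field, and Doc1 and Doc2 ranked 66 and 84. The background is that given above, and no test was made, because both lists were written with results of these data known.

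The genes whose strongest summit had the most similar ranks over the 3 replicates were found by distance on a log10 scale among 6044 protein-coding genes outside the cluster. They were noc for tin (0.0472), eg and CG43895, which share a summit, for bap (0.0433), and unc-4 for lbl (0.0530). For C15 it was fkh (0.145), for slou Drgx (0.0507), and for lbe the summit shared by Calr, Scm, SpdS, CG9427 and CG8319 (0.207). Its ranks were 7, 7 and 8 in the replicates.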

How the data were processed

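Data were from chromatin immunoprecipitation of GFP-tagged Nf-YB in 3 biological replicates of 1 group. Per the labels the assembly is dm6 and chromatin was sonicated. Per the readme texts deposited with the samples, the authors called peaks for each replicate and for the pooled replicates against a control alignment, and derived the optimal list by the irreproducible discovery rate. The aligner, the caller, their versions and the threshold were not given in the sources used here, and the control was not analysed here. Column 7 of the deposited lists is the authors' signal value, used to rank peaks within a list and as a ratio to the list median. Column 9 is the authors' −log10 q-value, tied at its highest value for 5672 of 6221 optimal peaks. A rank is 1 plus the number of strictly higher peaks.

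Genes, without transposable elements, came from Ensembl release 115 and sequence from RefSeq. Peak ends lay within the length of each of the 6 arms, and the start codons of all 6 genes read ATG. Column 10 of the deposited lists gives the summit. Replicate counterparts were the nearest summit within 100 bp. Positions are counted from 1. Named genes follow a written rule: all members, protein-coding genes between them with a summit (those without are counted), and the 4 highest and those without a summit of each list, and for each member the gene with the smallest Euclidean distance in log10 replicate ranks. twi, Doc1, Doc2, sna, htl, nau, Kr, CG7907, mod(mdg4), lncRNA:CR44032, lncRNA:CR44089, lncRNA:CR44033 and lncRNA:CR43453 are named in addition, after their values were seen. The members and lists were chosen with earlier results of these data known. Python 3.11.15 and pandas 2.3.3 were used, and the functions were tested on simulated data. Replicate spread is given as SD. Depth is unknown, so no interval was computed.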

Additional observations from a re-analysis of the deposited data

How the results depend on the processing

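All 6 genes held a summit with windows of 2 and 10 kb and among the 3110 optimal peaks with the highest signal. The share of all protein-coding genes is given only for 5 kb and the full list, so these counts have no background. The number of summits in the windows was 19 with 2 kb and 29 with 10 kb, and 16 among those 3110, which are fewer peaks. With 2 kb the strongest summit of slou was the one at its promoter, rank 611, and the ranks of the other 5 genes were as with 5 kb. The use of these windows for the strongest rank, and of the mean rank over 3 replicates, which kept all 6 places, was chosen after seeing the data. Summits found in all replicates numbered 20 within 50 bp, 24 within 200 bp and 16 among the 6221 strongest peaks of each replicate, without the share of the whole list beside them. Leaving out any 1 replicate, 4 of the 6 genes kept their place in the order by mean rank: without replicate 1, tin and lbl changed places, without replicate 2 they were tied at a mean rank of 44, and without replicate 3, bap and lbl changed places. The median width of the 25 summits was 444 bp in the optimal list and 490 bp in replicate 2, which equals the median of that replicate's own list. GAGAG was found within 25 bp of 5 summits, beside 9.48% of the optimal list, and within 100 bp of 13, beside 31.8%. CCAAT was found within 25 bp of 9, beside 15.5%, and within 100 bp of 14, beside 41.5%. Promoter summits numbered 5 within 250 bp and 8 within 1000 bp of a TSS, also without a background share. A ranking by the −log10 q-value gave no order, since the strongest summits of all 6 genes are tied at its highest value.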
